A study of Mus musculus with 2 samples.

Results

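Runx1, Runx2, Runx3 and Cbfb, the 3 DNA-binding RUNX factors of the mouse and their common partner, were described from the open chromatin around them in the embryonic face. They are 4 of 21938 protein-coding genes in the annotation. Each gene was taken with its body and 200 kb on either side, and every peak and hotspot touching that window was kept. The 4 windows held 519 of 304233 peaks in replicate 1 and 374 of 217980 in replicate 2, with 467 of 277933 and 338 of 198482 hotspots. Peaks that overlapped between replicates were merged into sites, which gave 310 of 177440 shared sites, 245 of them distal, that is, over 1 kb from every annotated transcription start.

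The tissue was facial prominence, the swellings that form the face, dissected from B6NCrl embryos aged 14.5 days, both sexes mixed. The study had 1 group of 2 biological replicates, different tissue samples listed under a single donor record, and the labels name no treatment or mutation. The face is a mix of cell types, so the values are averages over them. DNase-seq marks DNA that the enzyme DNase I can cut in nuclei. A peak is a region of 150 bp with the authors' score, used here only for its rank within its own list, and a hotspot is a broader region with a −log10 q-value that stops at 100. The design allows no test between groups, so values are given per replicate and intervals cover counting error only.

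RUNX proteins bind DNA through their Runt domain, and the core binding factor beta subunit, encoded by Cbfb, binds that domain and raises its affinity for DNA without touching DNA itself. Runx2 is the master regulator of osteoblasts and is needed for bone in the skull and jaw. Runx1 is best known from blood stem cells and is also active in the epithelium of the fusing palate. Runx3 acts in proprioceptive sensory neurons, cartilage and lymphocytes. Each Runx gene is transcribed from a distal promoter, P1, and a proximal promoter, P2, which give proteins with different N-termini, whereas Cbfb has 1 promoter region.

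The P1 promoters of the 3 Runx genes shared a stretch of sequence, shown here because peaks or hotspots lay over it at each gene. It was the longest run of bases common to the 3 P1 windows (250 bases before to 50 after the start) in RefSeq for GRCm38.p6, at 18 bases, and it holds a pair of RUNX cores, ACCACA, whose first letters lie 8 bp apart. ACCACA is TGTGGT read on the other strand. Capitals mark the run, and each sequence reads 5′ to 3′ along the gene: Runx1 from chr16:92826025-92826054, minus strand; Runx2 from chr17:44814583-44814612, minus strand; Runx3 from chr4:135120503-135120532, plus strand.
Runx1 P1: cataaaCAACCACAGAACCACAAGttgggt
Runx2 P1: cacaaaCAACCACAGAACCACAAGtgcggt
Runx3 P1: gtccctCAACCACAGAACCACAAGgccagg

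The run occurred at 3 places among 32851 RefSeq promoter windows. These were the P1 promoters of Runx1, Runx2 and Runx3, and the Runx3 copy also lay in the window of Gm16225, a long non-coding RNA on the opposite strand. A pair of same-strand cores TGTGGT with first letters 6 to 12 bp apart was found in 0.0639% of the windows, 21 in all. In Runx1 the run began 101 bp downstream of the annotated P1 start, inside an exon, and lay in a peak scoring 78 in replicate 1 and 37 in replicate 2. In Runx3 it began 143 bp upstream of the start, in peaks scoring 91 and 44. In Runx2 it began 191 bp downstream of the first P1 start, inside an exon. There it lay in the replicate 2 peak, which scored 53, while in replicate 1 the nearest peak lay 10 bp away and a hotspot covered it. These distances run from starts of the GENCODE annotation to the first base of the run. From the RefSeq starts that set the windows, its last base lay 43 bp downstream in Runx1, 38 bp downstream in Runx2 and 119 bp upstream in Runx3. A match describes letters only and does not show that a factor was bound.

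The promoters differed in base composition as well, and the exon-free sequence upstream of their starts is shown for the contrast between P1 and P2. Capitals mark RUNX motifs (TGTGGT or TGCGGT on either strand) and GC boxes (GGGCGG on either strand). The stretches are chr16:92826150-92826324 (Runx1 P1, minus strand), chr16:92697330-92697579 (Runx1 P2, minus strand), chr4:135120448-135120644 (Runx3 P1, plus strand), chr4:135152295-135152495 (Runx3 P2, plus strand) and chr8:105170424-105170673 (Cbfb, plus strand), from RefSeq in GRCm38.p6. The RefSeq table used here holds 6 promoter windows of the 4 genes, and Runx2 P2 is named only.
Runx1 P1 upstream: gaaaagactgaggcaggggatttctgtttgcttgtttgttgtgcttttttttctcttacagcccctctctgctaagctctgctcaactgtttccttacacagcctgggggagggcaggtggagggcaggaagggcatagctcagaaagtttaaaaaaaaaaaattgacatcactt
Runx1 P2 upstream: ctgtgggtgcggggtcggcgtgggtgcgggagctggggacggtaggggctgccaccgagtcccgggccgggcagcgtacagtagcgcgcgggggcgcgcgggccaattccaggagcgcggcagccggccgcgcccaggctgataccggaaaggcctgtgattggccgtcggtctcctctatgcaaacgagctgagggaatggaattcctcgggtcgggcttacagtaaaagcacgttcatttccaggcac
Runx3 P1 upstream: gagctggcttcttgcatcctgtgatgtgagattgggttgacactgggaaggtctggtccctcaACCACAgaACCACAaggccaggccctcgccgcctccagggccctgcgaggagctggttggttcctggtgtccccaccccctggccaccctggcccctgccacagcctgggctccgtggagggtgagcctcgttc
Runx3 P2 upstream: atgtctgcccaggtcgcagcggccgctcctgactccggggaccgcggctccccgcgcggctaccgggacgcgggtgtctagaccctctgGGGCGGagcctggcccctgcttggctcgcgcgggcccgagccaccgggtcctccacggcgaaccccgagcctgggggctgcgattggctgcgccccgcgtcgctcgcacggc
Cbfb upstream: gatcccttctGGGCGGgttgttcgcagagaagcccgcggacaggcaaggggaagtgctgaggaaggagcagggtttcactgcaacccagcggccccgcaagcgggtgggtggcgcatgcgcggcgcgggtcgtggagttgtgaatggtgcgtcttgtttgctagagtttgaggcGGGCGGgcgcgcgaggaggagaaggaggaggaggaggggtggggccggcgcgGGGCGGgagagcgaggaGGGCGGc

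P1 windows carried RUNX motifs, whereas the windows of Runx1 P2, Runx3 P2 and Cbfb carried none and were richer in CpG. Runx2 P2 had no window and was not examined. Over the full 300 bases the RUNX motif count was 2 at Runx1 P1, 4 at Runx2 P1 and 2 at Runx3 P1, against 0 at Runx1 P2, Runx3 P2 and Cbfb. A RUNX motif was present in 22.4% of all RefSeq promoter windows. CpG dinucleotides numbered 2, 2 and 8 at the P1 promoters of Runx1, Runx2 and Runx3. They numbered 35 at Runx1 P2, 45 at Runx3 P2 and 30 at Cbfb, and the median over all windows was 7. GC content was 45.0% and 45.3% at P1 of Runx1 and Runx2 and 63.7% at P1 of Runx3, against 69.0%, 77.3% and 69.7% at Runx1 P2, Runx3 P2 and Cbfb. GC boxes, the sites known for SP factors, numbered 4 at Cbfb and 3 at Runx3 P2, and 0 at Runx1 P2 and at each P1.

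Every P1 and P2 start carried a peak in both replicates. A shared promoter peak, within 500 bp of a start, was present at 67.5% of all protein-coding genes. Among 1758 genes with start groups 10 kb or more apart, 28.5% had shared peaks at both, as each Runx gene did. The distances from P1 to P2 were 128821 bp in Runx1, 78149 bp in Runx2 and 31844 bp in Runx3. In tissue made of many cell types, a weak peak in all cells and a strong peak in few cells cannot be told apart. A missing peak likewise does not show closed chromatin.

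At Runx1, P2 was the stronger start in both replicates. The strongest P2 peak scored 141 in replicate 1 and 116 in replicate 2, at percentiles 99.4 and 97.0 of their lists. The P1 peak (chr16:92825976-92826125 in both replicates) scored 78 and 37, at percentiles 82.4 and 50.8. The median over protein-coding genes with a shared promoter peak, each by its strongest peak, was percentile 96.9 in replicate 1 and 96.3 in replicate 2, so P2 lay slightly above it and P1 below it. P2 had 3 shared peaks, and the broadest hotspots within 500 bp of it with a −log10 q-value of 100 measured 1397 and 1975 bp, against 408 and 332 bp at P1. The replicate 1 hotspot (chr16:92697702-92699098) does not reach the P2 start at 92697328, whereas that of replicate 2 (chr16:92697176-92699150) covers it. The 2 widths at P2 therefore describe different stretches. A further start 1203 bp downstream of P2, from a transcript model in the same region, had peaks scoring 47 and 48. These overlapped by too little to count as shared when 75 bp of overlap was asked for.

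At Runx2, P2 again ranked above P1, by a smaller margin. P2 scored 97 and 99, at percentiles 91.8 and 94.5, below the median open promoter in both replicates, and its strongest peak had the same coordinates in both (chr17:44736376-44736525). P1, with 4 annotated starts, scored 84 and 53, at percentiles 86.1 and 73.3. Hotspots at P2 measured 1297 and 1223 bp, and those at P1 478 and 451 bp, all with a −log10 q-value at the ceiling of 100. That ceiling was reached by 31.3% of all hotspots in replicate 1 and 29.2% in replicate 2. The strongest promoter peaks of Runx2os1, an antisense gene, scored 75 and 73, as did a P2 peak in each replicate. Whether the P2 signal belongs to Runx2 alone therefore cannot be told. Among genes with 2 distant open start groups, the second was stronger in both replicates in 32.9%, as at Runx1 and Runx2, and the first in 54.3%.

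At Runx3, the order of P1 and P2 differed between the replicates. P1 scored 91 in replicate 1 and 44 in replicate 2, at percentiles 89.5 and 62.7. The P2 peaks scored at most 55 and 54, at percentiles 58.3 and 74.3. P1 was therefore the stronger start in replicate 1 and P2 the stronger in replicate 2. Hotspots separated the starts in the same way in both replicates: P1 lay in hotspots of 1130 and 1101 bp at the ceiling of 100, while the strongest at P2 measured 201 and 276 bp with −log10 q-values of 2.31 and 3.43. The P1 peak lies also at the start of Gm16225, so its signal cannot be assigned to either transcript.

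Cbfb had the most even values of the 4 genes. Its strongest promoter peak scored 135 in replicate 1 and 128 in replicate 2, at percentiles 98.6 and 98.8. A second peak within the same hotspot scored 93 and 86. That hotspot was 1724 bp wide in replicate 1 and 1676 bp in replicate 2, and both were at the ceiling of 100. By mean percentile over the replicates the order of starts was Cbfb 98.7, Runx1 P2 98.2, Runx2 P2 93.2, Runx2 P1 79.7, Runx3 P1 76.1, Runx1 P1 66.6, Runx3 P2 66.3 and the further Runx1 start 56.2. Neighbours in that order differed by less than the larger of their SDs (n = 2), except that Runx2 P2 lay apart from Runx1 P2 and from Runx2 P1. The SDs were 0.09 for Cbfb, 1.70 for Runx1 P2 and 1.91 for Runx2 P2, and between 9.05 and 22.39 for the rest.

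**Figure D1:**
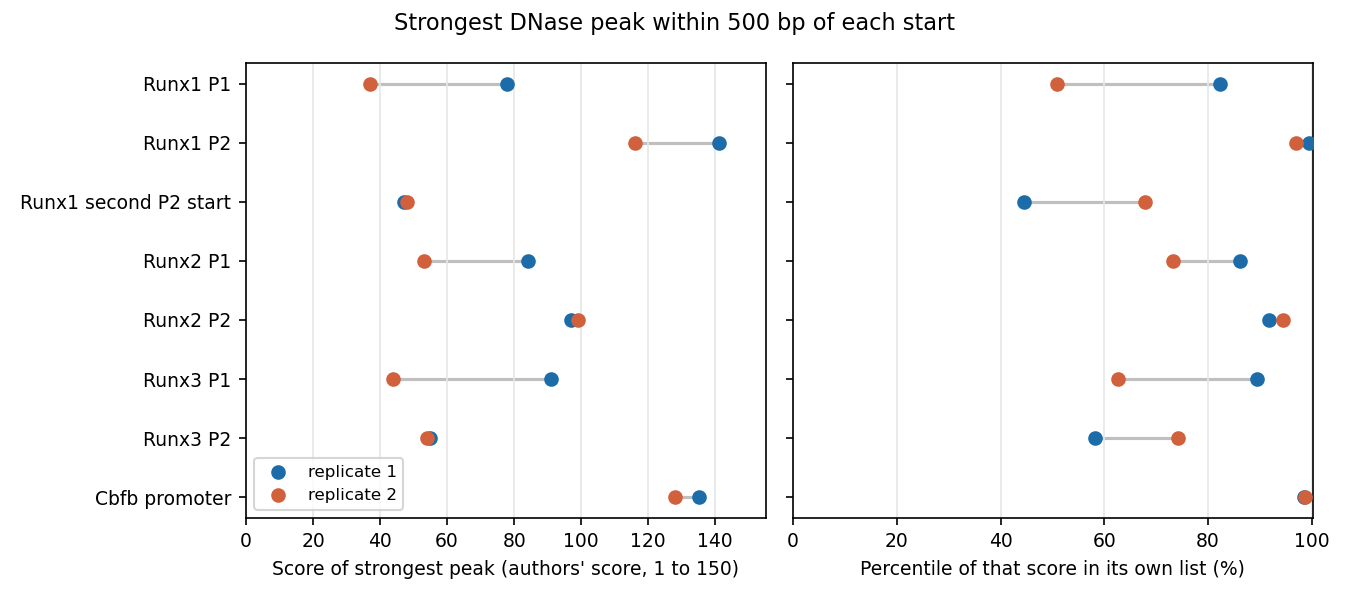
Strongest peak within 500 bp of each start, as the authors' score (left) and as its percentile within its own list (right), for replicate 1 (blue) and replicate 2 (orange), with a grey line joining the pair. Cbfb and Runx1 P2 lie at percentile 97.0 or above in both replicates, and the 3 P1 starts score higher in replicate 1 than in replicate 2.

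The 3 Runx windows were rich in distal sites and the Cbfb window was not. Runx1 had 76 distal sites in 624.7 kb, or 12.2 per 100 kb (exact Poisson 95% interval 9.59 to 15.2). Runx2 had 86 in 718.8 kb, or 12.0 (9.57 to 14.8), and Runx3 had 62 in 457.3 kb, or 13.6 (10.4 to 17.4). The intervals of the 3 Runx windows overlapped one another. Cbfb had 21 in 447.3 kb, or 4.69 (2.91 to 7.18), an interval that overlapped none of theirs. The median over protein-coding gene windows built the same way was 6.59 per 100 kb (quartiles 3.77 and 9.15), and 7.11% of them had a density at least that of Runx1. With all peaks of replicate 1 alone the densities were 25 at Runx1, 18.9 at Runx2, 21.4 at Runx3 and 8.05 at Cbfb, and with those of replicate 2 alone 13.9, 14.3, 15.1 and 5.59. With only the peaks at or above the median score of each list they were 8.0, 5.84, 9.18 and 3.58, from 42 sites at Runx2 and 16 at Cbfb. No intervals or medians over gene windows are given for these settings. The separation of Cbfb from the Runx windows is therefore shown for the main setting only. Densities were divided by the whole window, including sequence within 1 kb of a start, where no distal site can lie. Annotated starts numbered 50 in the Cbfb window, 13 in the Runx1 window and 14 each in the Runx2 and Runx3 windows. The part of this in the lower Cbfb density was not tested.

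Sites near other genes were part of these counts, and closeness to a start says nothing of the gene that a site regulates. The start of the member itself was the nearest protein-coding start for 51 of 76 sites in the Runx1 window, 49 of 86 in the Runx2 window, 27 of 62 in the Runx3 window and 4 of 21 in the Cbfb window. The windows hold different numbers of genes: counting the member itself, 3 protein-coding genes had a start in the Runx1 window, 2 in the Runx2 window, 5 in the Runx3 window and 22 in the Cbfb window. Accordingly 20 of the 46 shared sites at Cbfb were promoter sites, against 11 of 90 at Runx1, 8 of 97 at Runx2 and 11 of 77 at Runx3. Apart from the members, promoters with a shared peak were 2 of 2 at Runx1 (Clic6 and Rcan1), 1 of 1 at Runx2 (Supt3), 4 of 4 at Runx3 and 13 of 21 at Cbfb. Over all protein-coding genes the share was 67.5%, and a difference between the windows was not tested.

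**Figure D2:**
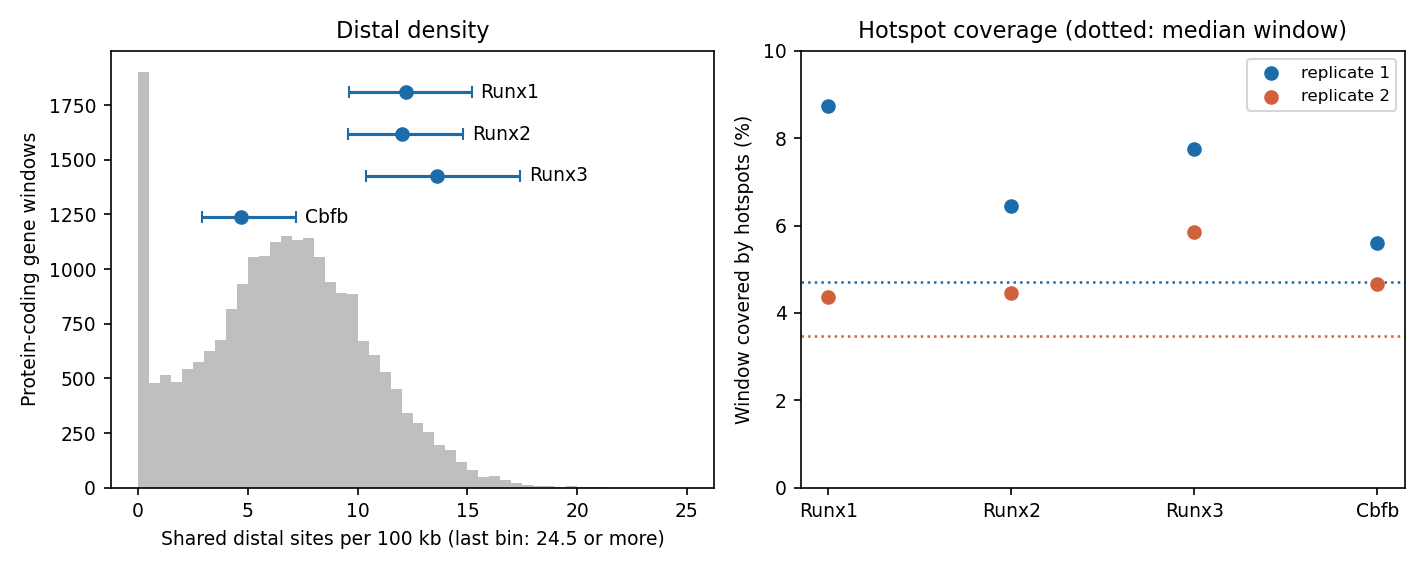
Left, histogram of shared distal sites per 100 kb over all protein-coding gene windows (grey), with the 4 genes above it (points) and their exact Poisson 95% intervals (bars). Right, percent of each window covered by hotspots in replicate 1 (blue) and replicate 2 (orange), with the medians over protein-coding gene windows dotted. Runx1 shows the widest gap between the replicates.

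Within each locus the distal sites fell in different parts. In Runx1 the density was highest between P1 and P2, with 19 sites in 129 kb (14.7 per 100 kb), and 26 further sites lay downstream of the gene. In Runx2 it was highest downstream of the gene, with 34 sites in 200 kb (17.0 per 100 kb), and lowest upstream of P1, with 14 sites (7.0). Most of those 34 had Clic5, not Runx2, as the nearest protein-coding start. In Runx3 the 200 kb upstream of P1 held 33 sites (16.5 per 100 kb), more than the 22 downstream of the gene. Many of those 33 had Syf2 as the nearest protein-coding start. The stretch between P1 and P2 of Runx3 held only 3 sites in 31.8 kb, and in Runx2 the corresponding stretch held 9 in 78.1 kb. In Cbfb the gene body held 2 sites, the upstream flank 6 and the downstream flank 13, and 8 of the 21 lay in exons, all of other genes.

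Among the 4 windows the replicates differed most at Runx1. Its window had 178 peaks in replicate 1 and 104 in replicate 2, a ratio of 1.71, while the whole lists had a ratio of 1.40 and the median gene window 1.29. Of these peaks 51.7% in replicate 1 and 87.5% in replicate 2 were shared, against 59.2% and 83.6% over the whole lists. Hotspots covered 8.74% and 4.36% of the Runx1 window, a ratio of 2.01, which exceeded that of 95.9% of gene windows. The gap was widest from P2 to the gene end, at 12.5% and 4.28%. Sequencing instruments are listed for replicate 1 only and depth is unknown, and the part of either in this gap was not tested.

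The other windows kept closer to the usual ratio. Hotspots covered 6.44% and 4.46% of the Runx2 window, 7.75% and 5.86% of the Runx3 window and 5.60% and 4.66% of the Cbfb window. Medians over gene windows were 4.70% and 3.48%, and the whole genome had 3.18% and 2.19%. In replicate 1, each of the 4 windows lay above the median window, and in replicate 2 they did so too. Shared peaks made up 64.3% and 84.6% at Runx2, 67.2% and 87.9% at Runx3, and 67.6% and 82.1% at Cbfb.

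The highest-ranked shared distal sites of Runx1 and Runx3 are shown, and beside them the highest-ranked sites with a RUNX motif at Runx1 (the seventh by rank) and Runx2 (the second by rank), to show where the motif lies. The Runx3 site is both. The first-ranked sites of Runx2 and Cbfb are given by position and score only. Capitals mark RUNX motifs, and all are read on the plus strand of GRCm38.p6: chr16:92698756-92698905 and chr16:92565816-92565985 for Runx1, chr17:44432616-44432805 for Runx2 and chr4:135146876-135147065 for Runx3.
Runx1 strongest: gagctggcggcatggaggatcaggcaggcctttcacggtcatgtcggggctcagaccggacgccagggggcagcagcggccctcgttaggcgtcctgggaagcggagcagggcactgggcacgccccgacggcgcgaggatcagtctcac
Runx1 strongest with a RUNX motif: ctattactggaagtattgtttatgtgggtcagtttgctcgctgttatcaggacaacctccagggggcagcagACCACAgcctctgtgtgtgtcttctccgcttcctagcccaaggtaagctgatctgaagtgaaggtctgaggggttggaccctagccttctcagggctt
Runx2 strongest with a RUNX motif: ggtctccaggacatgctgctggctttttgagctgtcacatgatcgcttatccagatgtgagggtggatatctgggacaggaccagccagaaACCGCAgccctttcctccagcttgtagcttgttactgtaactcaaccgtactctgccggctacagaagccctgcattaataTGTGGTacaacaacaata
Runx3 strongest: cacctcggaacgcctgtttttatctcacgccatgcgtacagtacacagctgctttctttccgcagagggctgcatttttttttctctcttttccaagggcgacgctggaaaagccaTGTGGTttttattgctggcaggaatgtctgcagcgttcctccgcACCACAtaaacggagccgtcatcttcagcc

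The strongest distal site at Runx1 scored 113 in replicate 1 and 103 in replicate 2. It lay in intron sequence 1428 bp from the P2 start, has no RUNX motif and is 70.0% GC. In both replicates it fell inside the broad hotspot counted at P2 (1397 and 1975 bp wide). It is distal by distance only and may be part of the P2 promoter region. The next 4 were intergenic and upstream of P1, at 19.6, 128.0, 180.7 and 128.3 kb from it, with replicate 1 scores of 110, 108, 113 and 95 and replicate 2 scores of 73, 72, 68 and 72. The strongest Runx1 site with a RUNX motif was the seventh by rank, scored 79 and 93 and lay downstream of the gene. It also has a CTCF motif, and its nearest protein-coding start was that of Clic6.

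At Runx2, 3 of the 5 strongest sites lay in its introns and 2 lay downstream of it. The strongest, at chr17:44618336-44618505, scored 106 and 90, and lay 196.4 kb downstream of P1. The site next in rank, printed above with 2 RUNX motifs over its whole length, scored 107 and 81, 382.1 kb downstream of P1. The third, 358.9 kb downstream, scored 91 in both replicates. The others, 216.5 and 286.0 kb downstream, scored 109 in replicate 1 and 73 and 69 in replicate 2.

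At Runx3 the strongest site lay in the intron between P1 and P2, 26.3 kb downstream of P1. It scored 113 and 86 and holds 2 RUNX motifs. The site next in rank lay 85.9 kb downstream of P1 and scored 94 and 108. The third, 174.5 kb upstream, scored 99 and 89 and has a RUNX motif and a CTCF motif. The fourth, 169.7 kb upstream, scored 107 and 75, and the fifth, 197.5 kb downstream, scored 94 and 85.

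At Cbfb the strongest distal site, 120.4 kb downstream of the promoter, scored 93 and 90, lay in an exon of Gm20163 and has RUNX and CTCF motifs. It lay 1027 bp from the nearest annotated start, just past the 1 kb limit, and its nearest protein-coding start was that of 4931428F04Rik. This site is distal by distance only and may be part of a promoter region of another gene. Next came a site 17.5 kb upstream, which scored 92 and 82, and a site 49.5 kb upstream with a RUNX motif, which scored 91 and 78. A site 227.2 kb downstream in an intron of Kctd19 scored 87 and 77. A site 89.1 kb downstream in an exon of Tradd scored 84 and 76, and it too has RUNX and CTCF motifs. Median ranks of all distal sites, as mean percentile, were 68.1 at Runx1, 56.9 at Runx2, 66.1 at Runx3 and 72.8 at Cbfb, and 57.7 over all distal sites of the genome.

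**Figure D3:**
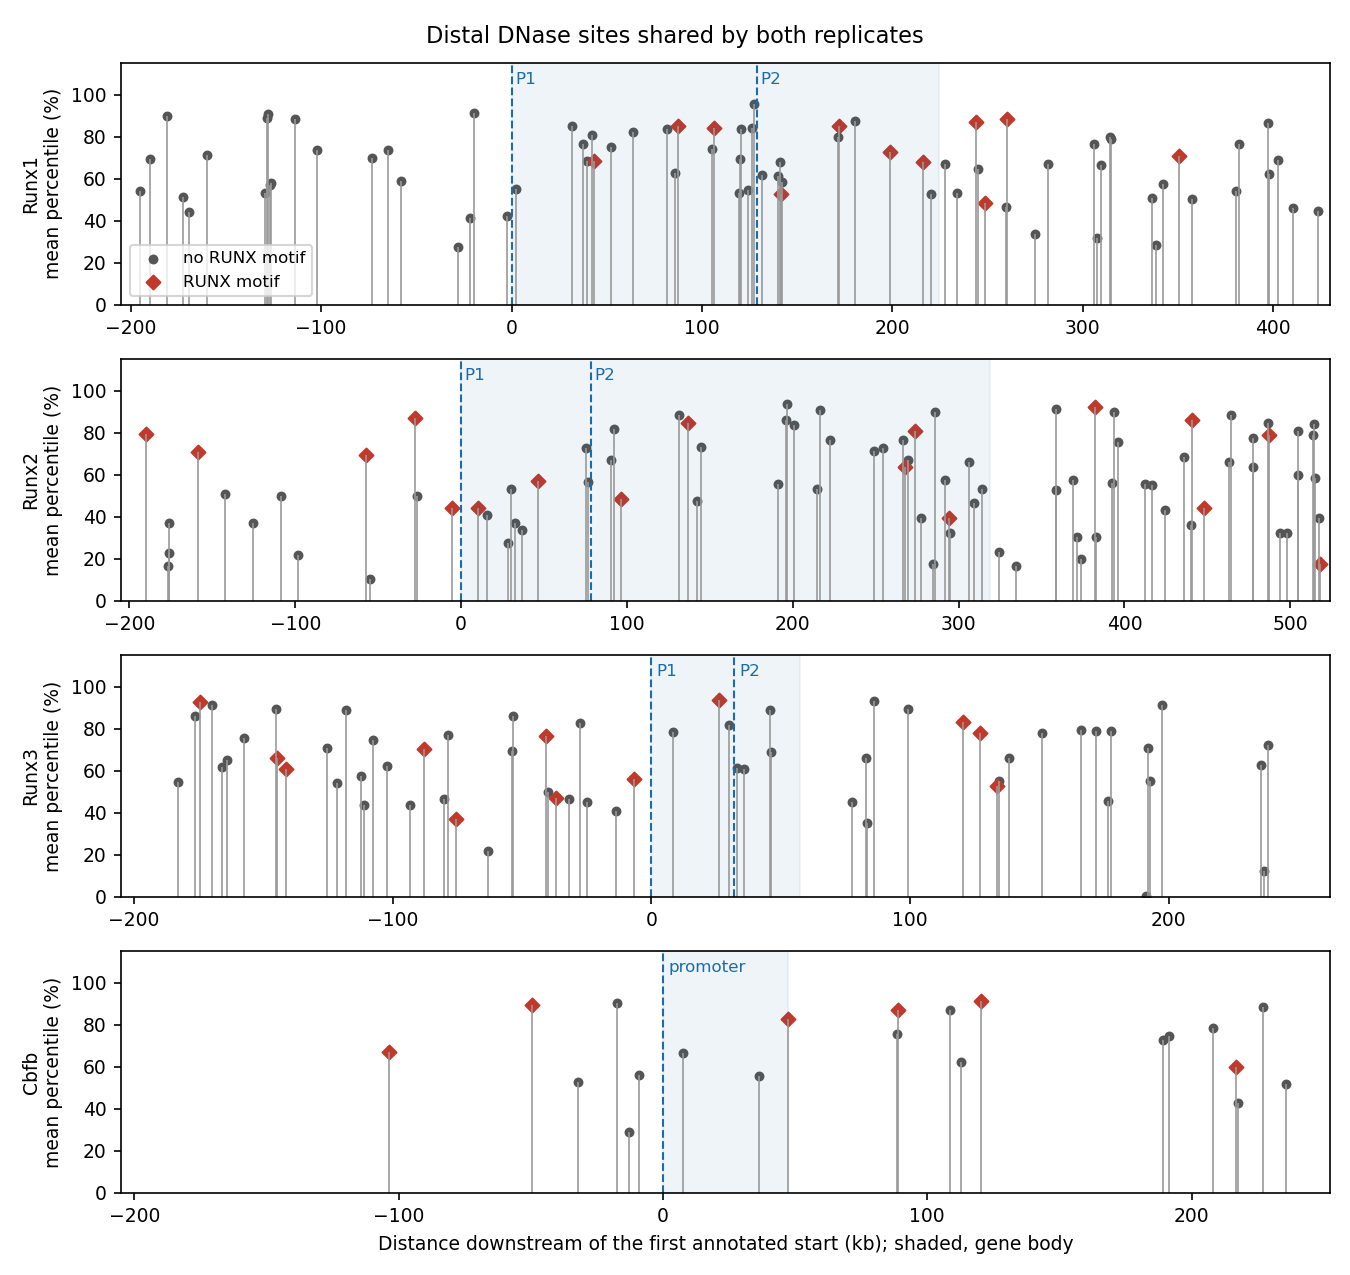
Shared distal sites of each gene by distance downstream of its first annotated start (kb, negative is upstream). Height is the mean percentile of the site's score over the replicates, red diamonds hold a RUNX motif, shading marks the gene body and dashed lines the starts. Runx2 sites crowd downstream of the gene, where 34 lay, and Runx3 sites upstream of P1, where 33 lay. Many of these lie nearest to the start of another gene, Clic5 or Syf2.

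The RUNX motif share of the distal sites lay near that of the genome. A TGTGGT or TGCGGT on either strand was found in the central 150 bp of 46 of 245 sites (18.8%, exact 95% interval 14.1 to 24.2), against 15.7% of all shared distal sites. By gene the share was 14.5% at Runx1, 19.8% at Runx2, 19.4% at Runx3 and 28.6% at Cbfb, and each exact interval included the genome share. The longer motif, TGTGGTT or TGCGGTT, which overlaps the shorter, was found in 9 of 62 Runx3 sites (14.5%, 6.86 to 25.8), against 6.32% of all distal sites. It was found in 2 of 76 sites at Runx1, 4 of 86 at Runx2 and 2 of 21 at Cbfb. Of the 9 Runx3 sites, 6 lay upstream of P1.

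The shares of other motifs are given without a test of a difference between the genes. The AP-1 motif TGACTCA, or TGAGTCA, was found in 8 of 76 Runx1 sites (10.5%, 4.66 to 19.7), against 4.43% of all distal sites. It was found in 4 of 86 Runx2 sites, in 1 of 62 Runx3 sites and in 0 of 21 at Cbfb, and the intervals of the 4 genes overlapped. The CTCF motif was found in 5 of 21 Cbfb sites (23.8%, 8.22 to 47.2), against 2.36% of all, in 4 of 76 Runx1 sites, in 3 of 62 Runx3 sites and in 0 of 86 Runx2 sites. The E-box CAGATG was found in 18 of 62 Runx3 sites (29.0%, 18.2 to 41.9), and that interval includes the share of all distal sites, 18.7%. It was found in 11.8% of sites at Runx1, 23.3% at Runx2 and 14.3% at Cbfb. These 3 shares and the longer RUNX motif were picked out of 15 motifs in 4 windows after their values were seen.

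**Figure D4:**
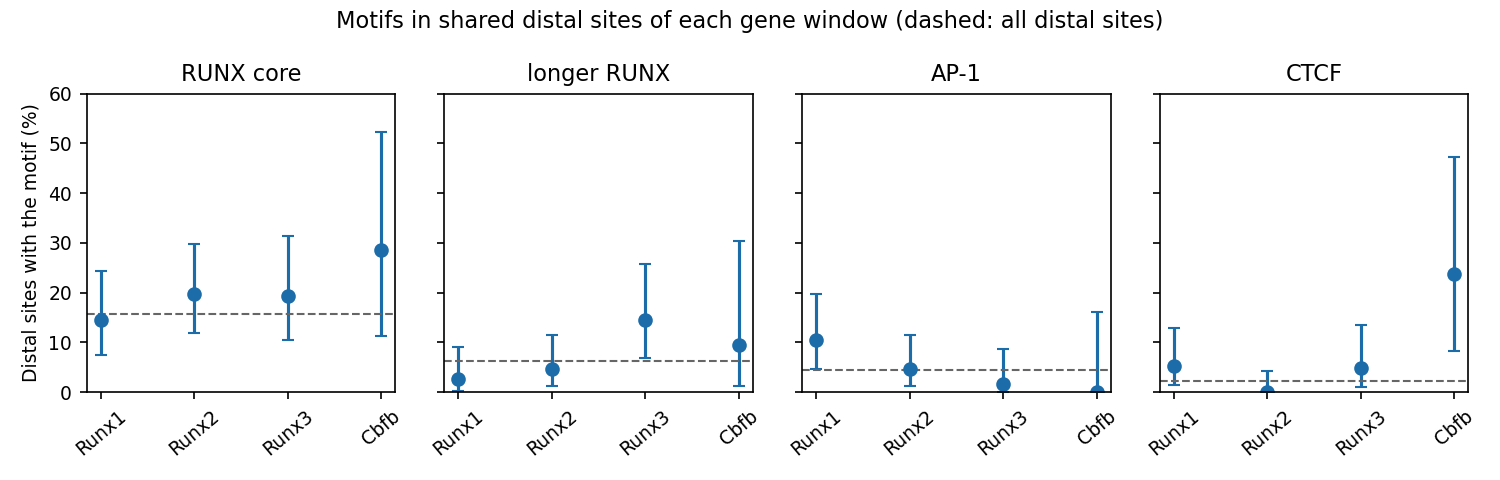
Percent of shared distal sites with a motif in each gene's window (points, with exact 95% intervals), and the share over all distal sites (dashed). The RUNX core intervals all include the genome share, and CTCF stands highest at Cbfb, at 23.8%.

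All 21 listed cofactors had a shared promoter peak, among them Hdac4, a histone deacetylase (148 and 143), Sin3a, a co-repressor scaffold (149 and 140), and the Groucho co-repressors Tle1 (146 and 140) and Tle4 (148 and 139), level at a mean percentile of 99.9. Of 19 regulators upstream of Runx2, 17 had one (89.5%, exact interval 66.9 to 98.7, which includes the share of all protein-coding genes), led by Zfp521 (140 and 121), Fgfr1 (138 and 117), and Fgf18 and Twist1, which tied (135 and 116 each). The exceptions were Hoxa2, which had no peak in either replicate, and Ihh, which had one only in replicate 2, scoring 26. These shares stood beside 67.5% for all protein-coding genes.

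Shares of RUNX target genes in bone, cartilage and blood with a shared promoter peak had intervals that included the 67.5% of all protein-coding genes. Of 16 bone targets 12 (75%, exact interval 47.6 to 92.7) had a shared promoter peak, led by Atf4 (148 and 134), Col1a2 (140 and 121) and Col1a1 (122 and 102). Sp7, the osteoblast factor downstream of Runx2, scored 68 and 40. Bglap, Bglap2 and Spp1, which encode osteocalcins and osteopontin of mature osteoblasts, had no peak, and Mmp13, a collagenase, had one only in replicate 1, scoring 34. Of 11 cartilage targets 8 (72.7%, 39.0 to 94.0) had a shared peak, led by Sox9 (140 and 116), Vegfa (129 and 124) and Fgf18, and those without were Col10a1, Ihh and Mmp13. Of 18 blood targets 8 (44.4%, 21.5 to 69.2) had one, led by Cebpa (136 and 116), Myb (101 and 93) and Gata2 (107 and 83), and the first 3 without, alphabetically, were Cd4, Csf1r and Csf2.

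The lists of sensory neuron targets and palate epithelium genes had 9 of 10 each (exact interval 55.5 to 99.7%), which also includes 67.5%. Of the neuron targets 9 had a shared promoter peak, led by Ntrk2 (127 and 123), Isl1 (131 and 113) and Etv1 (124 and 104), and Mrgprd had none. Of the palate genes 9 had one, led by Tgfbr1 (143 and 139) and Stat3 (143 and 132), with Bcl11b (137 and 125) and Socs3 (140 and 123) level at a mean percentile of 98.6, and Shh had a peak only in replicate 1, scoring 45. Over the 7 lists, 81 of 100 distinct genes had a shared promoter peak.

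Markers of the cells that the tissue can hold were counted the same way. Facial mesenchyme had 10 of 10 markers with a shared promoter peak, surface epithelium 6 of 6 and sensory neurons 8 of 8. Cartilage had 5 of 6, skeletal muscle 5 of 6, endothelium 5 of 6 and osteoblasts 5 of 8. Blood cells had 1 of 8, Tal1, at 66 and 38, and Gata1, Klf1, Spi1, Itga2b, Vav1 and Csf1r had no promoter peak in either replicate, while Ptprc had one only in replicate 2, scoring 17. Over all protein-coding genes the share was 67.5%. Only the exact intervals of mesenchyme (69.2 to 100%) and blood (0.316 to 52.7%) excluded it. The lists are short and were chosen with earlier results of these data known, and a missing peak does not show closed chromatin. None of these counts therefore shows which cells were present or absent.

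**Figure D5:**
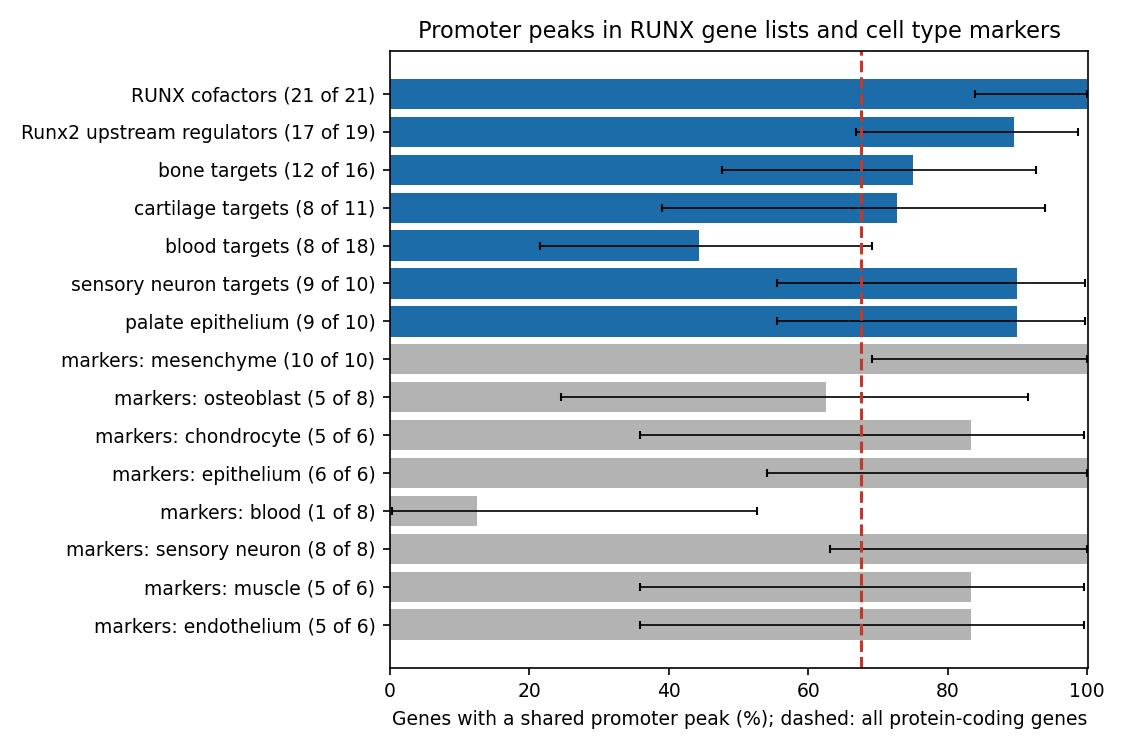
Percent of each RUNX list (blue) and of each cell type's markers (grey) with a promoter peak shared by both replicates, with exact 95% intervals, and the share over all protein-coding genes (dashed line, 67.5%). Cofactors stand at 21 of 21 and blood markers at 1 of 8.

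The genes most like each member in promoter peak rank, distal peak density and hotspot coverage were found over 6 quantities in the 2 libraries, by Euclidean distance between percentiles. Nearest to Runx1 were Ndufb4, Sema6a and Six2, at distances of 9.08, 12.9 and 13.0. Nearest to Runx2 were Blcap, Pfdn4 and Prr5, at 4.92, 5.35 and 5.76. Nearest to Runx3 were Ndst1, Spats1 and Ifitm10, at 5.40, 6.85 and 6.90. Nearest to Cbfb were March2, Rab13 and Map1a, at 5.79, 10.2 and 10.3.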

How the data were processed

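DNase-seq was measured in 2 biological replicates of 1 group. Per the labels, coordinates are mm10. The authors deposited, for each replicate, a peak list with a score per 150 bp peak (whole numbers, never above 150, with no stated normalization) and a hotspot list whose value is a −log10 q-value, as the authors' broad peak format defines it. The aligner, caller, settings and read depth were not given in the sources used here. The score ranks peaks within a list only.

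Regions off chromosomes 1 to 19, X and Y and repeated coordinates were left out (256 and 241 peaks). Peaks overlapping by 1 bp or more between replicates were shared and merged into sites. Starts came from the basic GENCODE M21 annotation, and starts within 1000 bp formed 1 group. P1 was the group farthest 5′ and P2 the internal coding group. Motifs were searched on both strands, in the central 150 bp of distal sites and in RefSeq promoter windows. Intervals are exact (Poisson or Clopper-Pearson) at 95%. Overlap, merging, distance and coverage functions were tested on simulated data. Python 3.11.15, numpy 2.4.6, pandas 2.3.3, scipy 1.17.1 and matplotlib 3.10.9 were used.

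Named were the members, their 5 distal sites of highest mean rank, all their start groups, the Clic and Rcan genes, listed genes without a shared promoter peak (the first 3 alphabetically if over 5), the 3 listed genes of highest rank, and the 3 genes nearest to each member. Sp7 and the motifs singled out were chosen after their values were seen. The members and lists were chosen with earlier results of these data known.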

Additional observations from a re-analysis of the deposited data

How the results depend on the processing

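Every P1, P2 and Cbfb start kept a shared peak, or hotspot where these replaced peaks, under all alternatives that used both replicates. With either replicate alone, each had a peak in that list. The further Runx1 start lost its shared peak when 75 bp of overlap was required. It also did so when only peaks at or above the median score of their list were used. Both settings left 7 of 8 start groups. With those stronger peaks alone, distal sites fell to 8.0 per 100 kb at Runx1, 5.84 at Runx2, 9.18 at Runx3 and 3.58 at Cbfb, since fewer peaks entered. Leaving out either replicate gave 13.9 and 25 per 100 kb at Runx1, 14.3 and 18.9 at Runx2, 15.1 and 21.4 at Runx3, and 5.59 and 8.05 at Cbfb, the higher value each time from replicate 1 alone, whose list is longer. Start groups with a peak then stayed at 8, the RUNX motif share was 17.3% and 20%, and listed genes with a promoter peak numbered 82 and 84. The longer RUNX motif gave 6.94% of member sites. Mean hotspot coverage with a −log10 q-value of at least 5 was 3.75% at Runx1, 2.93% at Runx2, 4.41% at Runx3 and 4.0% at Cbfb, against 6.55%, 5.45%, 6.80% and 5.13% with all hotspots, and flanks of 100 kb gave 6.45% at Cbfb. Starts from the comprehensive annotation, an alternative chosen after seeing the data, changed none of these calls. Over all alternatives 58 of 70 main values stayed within their error or within 1.5 times. Read depth is unknown, so the number of regions missed in either replicate cannot be stated. No paired analysis was possible because the study has 1 group.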

Other observations

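A Clic and an Rcan gene lie in the wider region of each of the 3 Runx genes. Rcan1, Clic6 and Clic4 had a start inside a Runx window, whereas Clic5, Rcan2 and Rcan3 did not. Each of the 6 had a shared promoter peak, beside 67.5% of all protein-coding genes. Rcan1 and Clic6, near Runx1, scored 145 and 132, and 96 and 69, in replicates 1 and 2. Rcan2 and Clic5, in the wider Runx2 region, scored 92 and 73, and 76 and 56. Rcan3 and Clic4, in the wider Runx3 region, scored 104 and 114, and 143 and 137. Their windows held 6.74 (Rcan2) to 13.8 (Clic6) shared distal sites per 100 kb, and parts of these windows overlap those of the Runx genes. Clic proteins are chloride intracellular channel proteins and Rcan proteins regulate calcineurin.

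The strongest distal and promoter peaks with no overlapping peak in the other replicate scored lower at Runx1 than at Cbfb. At Runx1 the highest scored 76 in replicate 1, 195.0 kb from P1, and 50 in replicate 2. At Runx2 they scored 79 and 73, and at Runx3 76 and 53. At Cbfb they scored 99 and 60, both within 200 bp of another gene's start. These 2 peaks lay beside each other, at chr8:105164256-105164405 and chr8:105164476-105164625. All the peaks named here except the Runx1 peak of replicate 1 overlapped a hotspot of the other replicate. For those, a missing peak overlap does not show that the site was closed in the other replicate.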
